A study of Homo sapiens with 12 samples.

Results

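The genes described here are the 37 genes of glucose uptake, glycolysis and glycogen metabolism that were read by symbol from a table of 54261 gene symbols. They are 7 glucose transporters, 3 hexokinases, 7 further enzymes of upper glycolysis, 5 genes that set the supply of fructose bisphosphates, 9 enzymes of lower glycolysis and 6 enzymes of glycogen. RNA was sequenced from cells of SW480 and of DLD1, human cell lines long established from colorectal cancers, each with lactate treatment and without it. The 4 groups were SW480 control, SW480 lactate, DLD1 control and DLD1 lactate, with 3 libraries in each and 12 in all. The design text calls the libraries of a group biological replicates, and no label says how the cultures were separated, so a p-value here measures the spread between these libraries. Concentration, duration and medium of the treatment are not stated in the labels, and each line stands for itself only.

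Glucose enters a cell through the transporters of the SLC2A family, and hexokinase traps it as glucose 6-phosphate. Phosphofructokinase makes the committed step of glycolysis and is activated by fructose 2,6-bisphosphate, which the bifunctional PFKFB enzymes make and break. Aldolase then splits the sugar, and the lower enzymes turn the fragments into pyruvate while they make ATP. Phosphoglucomutase connects glucose 6-phosphate to glycogen, which glycogen synthase and the branching enzyme build and glycogen phosphorylase takes down. Many tumour cells turn most of the pyruvate into lactate and release it, and several of these genes are known targets of the hypoxia-inducible factor.

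Levels are given as CPM, the count of a gene scaled to the total of its library, and the libraries held 12302311 to 22662063 counts each. The tests are those of edgeR's quasi-likelihood model over 17572 genes, and a gene is said to rise or fall where the Benjamini-Hochberg adjusted p over all of these genes was under 0.05. Of the 37 genes, 34 passed the filter on low counts. The transporter gene SLC2A6, the muscle phosphoglycerate mutase gene PGAM2 and PKLR, the pyruvate kinase gene of liver and red cells, did not pass. SLC2A6 reached at most 0.488 CPM and PGAM2 at most 0.450 CPM in any library, and PKLR had 1 count in 1 DLD1 control and 0 in the other 11 libraries. Of the 34, SLC2A10 and FBP1 passed only through DLD1 and HKDC1 only through SW480, so their difference between the lines was a condition of being tested.

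All 7 markers of colorectal epithelium were above 1 CPM in DLD1, and 4 of 7 were in SW480. Their summed level was 1948.5 to 2298 CPM in SW480 controls and 1400 to 1665 CPM after lactate, and 6479 to 9519 CPM in DLD1 controls and 9473 to 10509 CPM after lactate. The 6 leukocyte markers summed to 35.3 to 55.8 CPM in SW480 controls, where CD3E was at 0, and to 90.9 to 110 CPM after lactate. Only 2 of the 6 had a mean above 1 CPM in each of the 4 groups. Of the 2 tested, edgeR called 1 in SW480 and 0 in DLD1, and DESeq2 called 1 in each line, CD68, which rose. In DLD1 the leukocyte sum was 3.55 to 8.96 CPM and 10.8 to 13.5 CPM, with PTPRC at 0 in both groups. The 6 fibroblast markers summed to 243 to 261 CPM in SW480 and to at most 11.9 CPM in DLD1, and the endothelial, muscle and hepatocyte lists each summed to at most 15.1 CPM in every library. The part of these markers in the results was not tested, and in bulk RNA fewer cells of a kind and less RNA per cell cannot be told apart.

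After lactate, 5 of the 9 tested transporter and hexokinase genes rose in SW480 and SLC2A8 fell. Of 8 enzymes further down that together carry most of the transcripts, edgeR called 0, where 12.4% of all genes were called. A set of 8 is too small to be set apart from that share. Of the 34 tested genes, 12 rose and 1 fell in SW480. That is 35.3% rising, where 6.83% of all tested genes rose and 5.58% fell. The genes that rose were the transporter genes SLC2A1, SLC2A3 and SLC2A12, the hexokinase genes HK1 and HK2, the regulators PFKFB2 and PFKFB3, the aldolase gene ALDOC, the enolase genes ENO2 and ENO3, and the glycogen genes GBE1 and PYGL. The transporter gene SLC2A8 fell. The median log2 fold change was 0.21 over the 34 genes and -0.0061 over all tested genes. The 3 lactate libraries lay above all 3 controls for 14 of the 34 and below them for 5, where 18.9% and 21.9% of all genes did so.

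The SW480 count leaned on single libraries. It was 7 without SW480 control 1, where 3.83% of all genes were called in either direction, and 8 without SW480 control 3, where 6.76% were, and no other library moved it by more than 1.5 times. Values called GC-adjusted come from a fit in which each library was freed of its trend along the GC content and the length of transcripts. In that fit 15 genes rose and 3 fell, where 13.9% of all genes rose and 14.8% fell. The additional genes were PFKFB4, ALDOA and GYS1 among those that rose and TIGAR and PGM1 among those that fell.

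In DLD1 the same direction prevailed with fewer calls. The transporter gene SLC2A1, the regulator PFKFB4 and ALDOC rose and 0 of the 34 fell, where 0.336% of all tested genes rose and 0.0455% fell. The median log2 fold change was 0.37, against 0.017 over all genes, and 30 of the 34 values were above 0. The lactate libraries lay above all controls for 19 genes and below them for 2, where 10.7% and 8.06% of all genes did so. DESeq2 gave an adjusted p to 32 of the 34 and called 11, of which 10 rose and TIGAR fell. It called 5.64% of all genes that had such a p.

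The DLD1 controls differed from each other more than the libraries of any other group, and this touched the 34 genes. Each library was set against the mean of its 2 replicates. The SD of that log2 deviation over genes was 0.545 in DLD1 control 2, 0.445 in DLD1 control 3 and at most 0.266 in the other 10 libraries. The deviation followed transcript GC content, with Spearman's rho across genes of -0.79 in control 2 and 0.82 in control 3. The 34 genes had GC-rich transcripts, with a median GC content of 54.5% against 48.8% for all genes. In DLD1 control 2, 26 of the 34 genes lay below the other 2 controls on average, and in control 3 only 8 did. The same held outside the DLD1 controls. In SW480 lactate 3, 26 of the 34 lay below its replicates, with rho -0.62 across genes. The SD over the 34 genes was 0.389 there and 0.376 in DLD1 control 2. SW480 lactate 1 and DLD1 lactate 2 followed GC content as well, at rho 0.50 and -0.51. Across all genes the DLD1 fold change followed GC content at rho 0.57, and within the 34 genes at 0.20. These rho describe the libraries, since genes are not independent replicates.

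The DLD1 calls changed with the library left out and with GC adjustment. Without DLD1 control 3, 19 genes rose and 2 fell, where 21% of all genes were called in either direction. Without DLD1 control 2 the count stayed at 3, where 0.823% of all genes were called. Without any of the other 10 libraries it was 0 or 1, where at most 0.283% were. With the line fitted alone it was 0, where 0.00654% of all genes were called. GC-adjusted, 9 rose and 0 fell, where 1.84% of all genes rose and 1.46% fell. The additional genes were SLC2A3, SLC2A12, HK1, PFKP, GBE1 and PYGL, and the median log2 fold change was then 0.22. The adjustment also takes out any effect of lactate that itself follows GC content.

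The difference of the lactate effect between the lines, DLD1 minus SW480, was called for 1 of the 34 genes, HK2, where 0.728% of all genes were called in either direction. GC-adjusted, it was called for 6, where 8.1% of all genes were. Those were HK2, SLC2A3, HK1 and PYGL, with the smaller effect in DLD1, and SLC2A8 and PGM1, with the more positive effect in DLD1. DESeq2 gave an adjusted p to 33 and called 4, HK2, SLC2A3, SLC2A8 and PGM1, where it called 4.69% of all genes. With replicate number as a block, edgeR called 3, HK2, SLC2A3 and SLC2A8, where 1.56% were called. The count of edgeR's main fit was 0 without SW480 control 1, SW480 control 3, SW480 lactate 2, DLD1 lactate 2 or DLD1 lactate 3, where at most 0.167% of all genes were called. It was 2 without SW480 control 2, 3 without DLD1 control 2 and 6 without DLD1 control 3, where 0.694%, 3.29% and 8.35% of all genes were called.

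**Figure D1:**
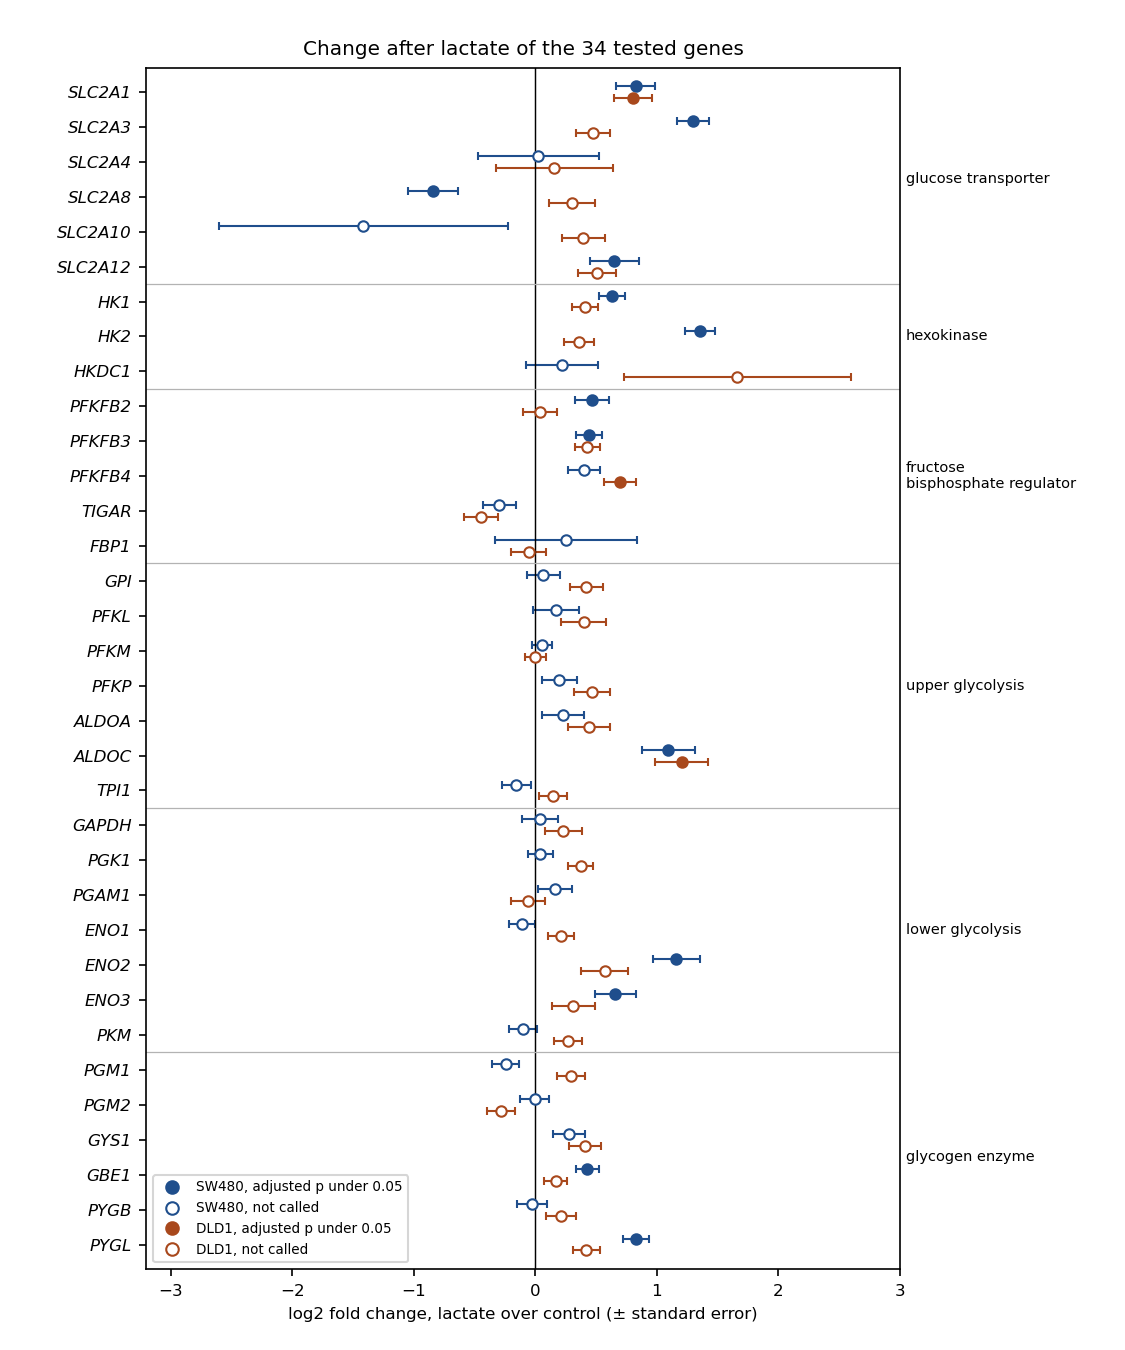
Log2 fold change after lactate (x axis, ± standard error) of the 34 tested genes, grouped by role, in SW480 (blue) and DLD1 (brown), with filled points where the adjusted p was under 0.05. Filled blue points stand among transporters, hexokinases and regulators and at ALDOC, ENO2, ENO3, GBE1 and PYGL, the points of TPI1, GAPDH, PGK1, ENO1 and PKM lie near 0 in SW480, and 3 brown points are filled.

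The sequence before the start site is shown for 5 genes whose responses differed. HK2, ALDOC and ENO2 rose more than 2-fold in SW480, SLC2A1 rose in both lines, and PGK1 was not called by edgeR in either and by DESeq2 in DLD1 only. Each line gives the 250 bases before the start, 5′ to 3′ on the strand of the gene, from RefSeq on GRCh38.p14, with ACGTG and its complement CACGT in capitals. ACGTG is a core to which the hypoxia-inducible factor can bind, and CACGTG, of which it is a part, is an E-box. They lie at chr2:74833877-74834126 (plus strand), chr17:28576896-28577145 (minus strand), chr12:6914330-6914579 (plus strand), chr1:42958869-42959118 (minus strand) and chrX:78103998-78104247 (plus strand).
HK2: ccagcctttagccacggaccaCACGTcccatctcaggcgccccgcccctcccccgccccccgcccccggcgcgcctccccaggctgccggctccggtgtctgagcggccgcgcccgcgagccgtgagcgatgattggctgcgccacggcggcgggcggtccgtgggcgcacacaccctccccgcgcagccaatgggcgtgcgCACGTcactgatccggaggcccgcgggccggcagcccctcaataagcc
ALDOC: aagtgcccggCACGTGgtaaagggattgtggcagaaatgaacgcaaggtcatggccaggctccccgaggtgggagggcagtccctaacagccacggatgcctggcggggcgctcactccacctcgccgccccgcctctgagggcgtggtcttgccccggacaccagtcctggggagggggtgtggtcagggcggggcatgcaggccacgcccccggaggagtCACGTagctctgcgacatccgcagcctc
ENO2: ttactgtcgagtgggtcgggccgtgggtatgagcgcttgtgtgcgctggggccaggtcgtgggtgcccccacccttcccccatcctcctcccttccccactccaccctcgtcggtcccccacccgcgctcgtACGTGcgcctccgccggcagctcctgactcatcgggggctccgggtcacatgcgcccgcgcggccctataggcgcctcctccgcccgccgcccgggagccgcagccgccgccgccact
SLC2A1: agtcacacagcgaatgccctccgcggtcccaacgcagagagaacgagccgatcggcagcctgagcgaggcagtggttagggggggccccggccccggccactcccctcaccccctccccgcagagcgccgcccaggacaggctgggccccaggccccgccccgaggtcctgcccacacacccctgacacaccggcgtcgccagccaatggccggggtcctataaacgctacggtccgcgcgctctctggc
PGK1: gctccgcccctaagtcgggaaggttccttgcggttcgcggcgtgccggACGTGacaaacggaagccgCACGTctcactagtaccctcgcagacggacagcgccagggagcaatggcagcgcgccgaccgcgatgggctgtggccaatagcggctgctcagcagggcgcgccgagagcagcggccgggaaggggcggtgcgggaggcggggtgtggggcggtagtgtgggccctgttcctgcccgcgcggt
In these windows HK2 and PGK1 each held ACGTG 2 times, ENO2 held it 1 time and SLC2A1 held it 0 times. ALDOC held it 3 times, since its 1 CACGTG counts on each strand. HK2 has a further start site, not shown, whose window held ACGTG 4 times. RefSeq promoters were matched for 34 of the 37 genes, with 58 start sites. SLC2A3 and PFKFB2, which rose in SW480, and SLC2A4 were not matched. Start sites a few bases apart, as in HK1 and PFKM, were counted as separate promoters. ACGTG on either strand was in 34.5% of these and in 18.5% of all 35116 promoters of that length, GCGTG in 34.5% against 32.2%, and CACGTG in 12.1% against 6.3%. The 58 promoters of the 34 matched genes were also richer in GC, at a median of 69.0% against 58.0%. Counted by gene, ACGTG was in a promoter of 17 of the 34 matched genes, against 21.7% of all 27305 genes. It was in a promoter of 5 of the 10 matched genes that rose in SW480 and of 11 of the 20 that were not called in SW480. A match is a string of letters and was not tested as a binding site.

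Among the glucose transporters, 3 of 6 tested genes rose and 1 fell in SW480, and 1 of 6 rose in DLD1. DESeq2 gave an adjusted p to 5 of the 6 in DLD1. It called 3, SLC2A1, SLC2A3 and SLC2A12, which rose, where it called 5.64% of all genes. The same 3 rose in DLD1 when GC-adjusted, where 1.84% of all genes rose. SLC2A3 (chr12:7919230-7936187) encodes GLUT3, a transporter of high affinity. Its level was 779, 1133 and 967 CPM in the SW480 controls and 2228, 2608 and 2116 CPM in the lactate libraries. All lactate libraries lay far above the controls, with a log2 fold change of 1.30 ± 0.13 (SE) and an adjusted p of 7.3e-05. In DLD1 it stood at 32.1, 35.5 and 32.0 CPM in controls and at 50.2, 47.0 and 43.8 CPM after lactate. These DLD1 groups did not overlap either, and the log2 difference of 0.48 ± 0.14 had an adjusted p of 0.139, GC-adjusted 0.0393. The effect was 0.82 ± 0.19 smaller in DLD1 on the log2 scale, with an adjusted p of 0.0656, GC-adjusted 0.0145.

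SLC2A1 (chr1:42925353-42958868) encodes GLUT1, the transporter of basal uptake in most cells. It was at 224, 282 and 261 CPM in SW480 controls and at 449, 470 and 418 CPM after lactate. In DLD1 the values were 399, 310 and 538 CPM in controls and 819, 678 and 714 CPM after lactate. The groups did not overlap in either line, and the increases were 0.83 ± 0.16 in SW480 (adjusted p 0.0044) and 0.81 ± 0.16 in DLD1 (adjusted p 0.0435). Their difference was -0.02 ± 0.22 with an adjusted p of 0.992. With 1 library left out at a time, the DLD1 call was kept only without DLD1 control 2 or DLD1 control 3, and the adjusted p otherwise reached 0.274. When GC-adjusted, that p was 0.0027.

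SLC2A12 (chr6:133987581-134052624), which encodes GLUT12, was low in SW480, at 2.19, 3.33 and 2.37 CPM in controls and 3.12, 4.86 and 3.99 CPM after lactate. The groups overlapped, and the increase of 0.65 ± 0.20 had an adjusted p of 0.0485. Any of 8 libraries, once left out, ended that call, namely SW480 control 1 or 3, SW480 lactate 2 or 3, DLD1 control 1 or DLD1 lactate 1, 2 or 3, with an adjusted p of up to 0.234. In DLD1 SLC2A12 stood at 15.4, 13.3 and 14.3 CPM and at 21.2, 21.2 and 19.9 CPM, a difference of 0.51 ± 0.16 (adjusted p 0.150, GC-adjusted 0.0180).

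SLC2A8 (chr9:127397169-127407898), which encodes the intracellular transporter GLUT8, was the gene that fell. It went from 14.9, 10.6 and 13.2 CPM to 8.11, 5.79 and 7.62 CPM in SW480, a change of -0.84 ± 0.21 with an adjusted p of 0.0167. All lactate libraries were below all controls. In DLD1 the values overlapped, at 18.9, 14.0 and 24.9 CPM in controls and 23.4, 22.1 and 27.0 CPM after lactate (log2 difference 0.30 ± 0.19, adjusted p 0.386). The SW480 call was lost without SW480 control 1, SW480 control 3, SW480 lactate 2 or SW480 lactate 3, with an adjusted p of up to 0.103. The difference between the lines was 1.14 ± 0.28 with an adjusted p of 0.0702, and GC-adjusted it was 0.93 with a p of 0.0038. SLC2A4, the insulin-responsive transporter of muscle and fat, stayed between 0.214 and 1.06 CPM over all libraries and was not called. SLC2A10 was at 12.9 to 17.9 CPM in DLD1 controls and 18.7 to 22.3 CPM after lactate (0.40 ± 0.17, adjusted p 0.248).

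Hexokinase traps glucose in the cell, and 2 of the 3 tested hexokinase genes rose in SW480. In DLD1 edgeR called 0 of 3, and 2 of the 3 had an unadjusted p under 0.05, as did 3252 of all 17572 genes. DESeq2 gave an adjusted p to 2 of the 3 there and called 1, HK1. HK2 (chr2:74834127-74893359), the isozyme known for its high level in tumours, was at 138, 192 and 175 CPM in SW480 controls and at 383, 463 and 423 CPM after lactate. The lactate libraries lay far above the highest control, with a log2 fold change of 1.35 ± 0.12 and an adjusted p of 3.5e-05. In DLD1 it stood at 167, 185 and 181 CPM in controls, close to SW480, and at 248, 236 and 212 CPM after lactate. The DLD1 difference was 0.36 ± 0.12 with an adjusted p of 0.165. HK2 thus had the same level in both untreated lines within their spread, and a response that was smaller in DLD1 by 0.99 ± 0.17 on the log2 scale (adjusted p 0.0168).

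HK1 (chr10:69270000-69401882), the widely expressed isozyme, was at 138, 167 and 154 CPM in SW480 controls and at 233, 240 and 227 CPM after lactate. The groups were well separated, with an increase of 0.63 ± 0.11 (adjusted p 0.0019). In DLD1 the values were 144, 138 and 179 CPM and 211, 211 and 201 CPM, also without overlap, at 0.41 ± 0.11 (adjusted p 0.122, GC-adjusted 0.034). HKDC1, a hexokinase-like gene that neighbours HK1 at chr10:69220332-69267552, was at 3.47 to 4.11 CPM in SW480 controls and at 3.88 to 4.63 CPM after lactate, with 0.22 ± 0.30 (adjusted p 0.683). In DLD1 it did not exceed 0.265 CPM.

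**Figure D2:**
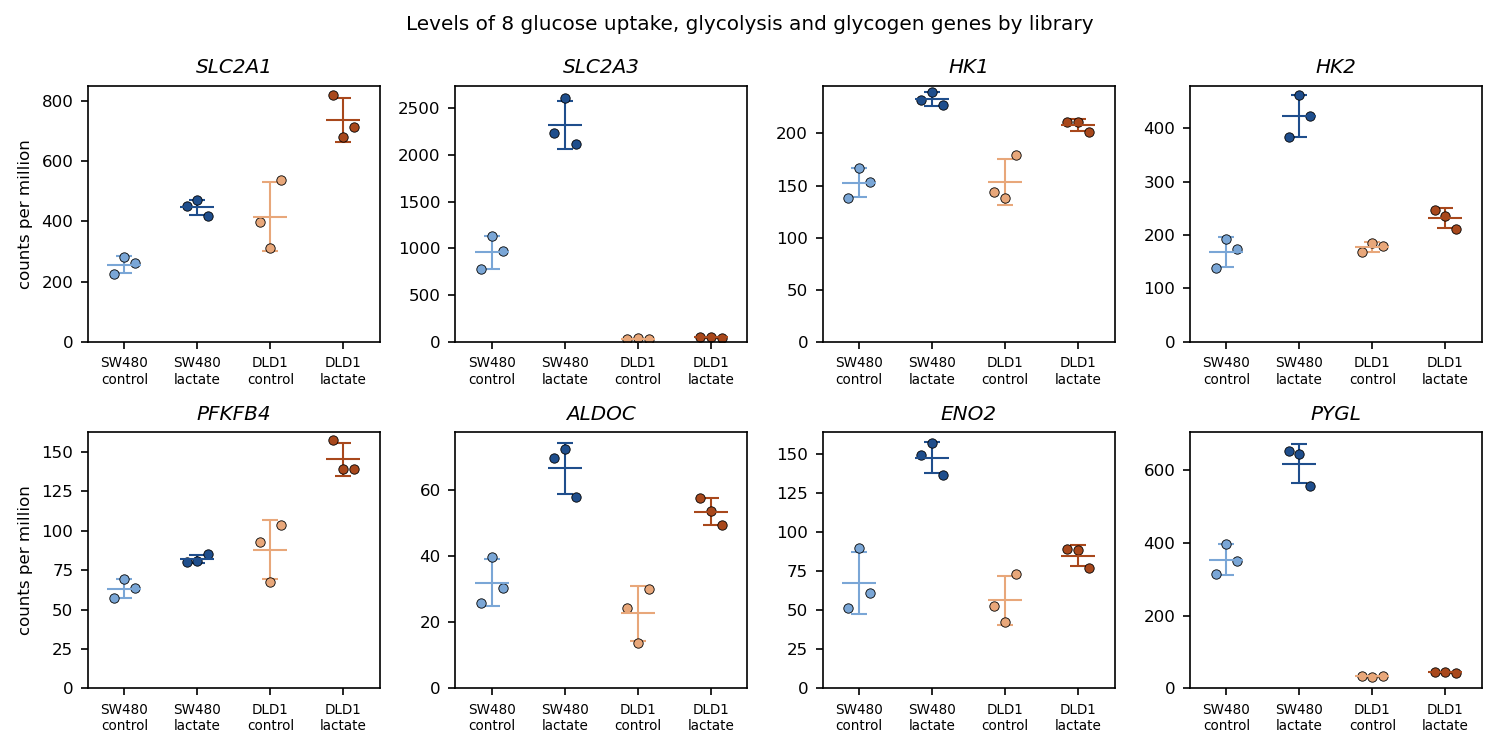
Level of 8 genes in each of the 12 libraries (y axis, CPM, from 0), with 3 points per group and bars for mean ± SD (n = 3). SLC2A1, HK1, HK2, PFKFB4, ALDOC and ENO2 have their lactate points above their control points in both lines, SLC2A3 and PYGL are far lower in DLD1, and the step of HK2 is larger in SW480 (168 to 423) than in DLD1 (178 to 232).

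Of the 5 genes that set the supply of fructose bisphosphates, 2 rose in SW480, PFKFB2 and PFKFB3, and 1 in DLD1, PFKFB4. DESeq2 also called PFKFB4 in SW480, which rose, and in DLD1 PFKFB3, which rose, and TIGAR, which fell. It called 16.1% of all genes in SW480 and 5.64% in DLD1. PFKFB3 (chr10:6144921-6326637), whose product favours making fructose 2,6-bisphosphate, was at 25.3, 24.1 and 24.8 CPM in SW480 controls and at 30.6, 35.4 and 33.1 CPM after lactate. In DLD1 it was at 66.8, 61.0 and 78.8 CPM in controls and at 99.1, 92.8 and 90.5 CPM after lactate. The groups did not overlap in either line, with 0.44 ± 0.11 in SW480 (adjusted p 0.0178) and 0.43 ± 0.11 in DLD1 (adjusted p 0.108). The SW480 call was lost without SW480 control 1, 2 or 3 or SW480 lactate 2, with an adjusted p of up to 0.098.

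PFKFB4 (chr3:48517684-48563136), another member of the family, was at 57.1, 69.1 and 63.5 CPM in SW480 controls and at 80.3, 81.1 and 85.0 CPM after lactate, a difference of 0.40 ± 0.13 (adjusted p 0.0617). In DLD1 it rose from 93.2, 67.7 and 103 CPM to 157, 139 and 139 CPM, by 0.70 ± 0.13 (adjusted p 0.0337). With 1 library left out at a time, that DLD1 call was kept only without DLD1 control 2 or DLD1 control 3, and the adjusted p otherwise reached 0.240. GC-adjusted, PFKFB4 rose in both lines, by 0.34 and 0.49.

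PFKFB2 (chr1:207034416-207081027) rose in SW480 from 38.3, 38.9 and 39.3 CPM to 45.2, 53.6 and 59.9 CPM, by 0.47 ± 0.14 (adjusted p 0.0420). The controls were tightly grouped and the lactate libraries spread out above them. Any of 8 libraries, once left out, ended that call, namely SW480 control 1, 2 or 3, SW480 lactate 2 or 3, DLD1 control 1 or DLD1 lactate 2 or 3, with an adjusted p of up to 0.153. In DLD1 PFKFB2 overlapped, at 41.6, 53.1 and 37.4 CPM and at 51.2, 45.5 and 41.4 CPM (0.04 ± 0.14, adjusted p 0.907). TIGAR, a phosphatase that acts on fructose 2,6-bisphosphate, had negative values in both lines, at -0.30 ± 0.14 in SW480 and -0.45 ± 0.14 in DLD1 (adjusted p 0.177 and 0.150). FBP1, which runs the phosphofructokinase step backwards in gluconeogenesis, was at 21.6 to 25.9 CPM in DLD1 controls and 23.5 to 24.4 CPM after lactate (-0.05 ± 0.14, adjusted p 0.877), and did not exceed 0.356 CPM in SW480.

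In the middle and lower part of the pathway the isozymes that rose were scarce ones. ALDOC (chr17:28573120-28576895), the aldolase best known from brain, rose from 25.8, 39.6 and 30.1 CPM to 69.6, 72.2 and 57.7 CPM in SW480. In DLD1 it rose from 24.3, 13.7 and 30.0 CPM to 57.3, 53.5 and 49.2 CPM. Every lactate library was above every control in both lines, with 1.09 ± 0.22 in SW480 (adjusted p 0.0054) and 1.20 ± 0.22 in DLD1 (adjusted p 0.0298). The SW480 call held without each library. The DLD1 call was lost without SW480 control 3, SW480 lactate 1, 2 or 3, DLD1 control 1 or DLD1 lactate 1, 2 or 3, with an adjusted p of up to 0.208. When GC-adjusted, that p was 0.0052.

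ENO2 (chr12:6914580-6923697), the enolase known from neurons, went from 51.3, 89.5 and 61.0 CPM to 149, 157 and 137 CPM in SW480. The increase of 1.16 ± 0.20 had an adjusted p of 0.0020, and the call held without each library. DLD1 showed 52.8, 42.3 and 73.4 CPM in controls and 88.9, 88.3 and 77.1 CPM after lactate, without overlap, at 0.57 ± 0.20 (adjusted p 0.170). ENO3 (chr17:4948710-4957129), the muscle enolase, rose in SW480 from 7.78, 8.45 and 8.21 CPM to 11.3, 11.5 and 15.4 CPM, by 0.66 ± 0.17 (adjusted p 0.0201). It was no longer called without SW480 control 1, SW480 control 3 or SW480 lactate 3, with an adjusted p of up to 0.105. In DLD1 ENO3 stood at 4.96, 3.42 and 5.21 CPM and at 5.15, 6.19 and 5.91 CPM (0.31 ± 0.18, adjusted p 0.351).

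GPI, ALDOA, TPI1, GAPDH, PGK1, PGAM1, ENO1 and PKM together carry most of the transcripts of the pathway. This set of 8 is not that of the 8 highest genes. In SW480 controls SLC2A3 (mean 960 CPM), PFKP (385 CPM) and PYGL (354 CPM) stood above GPI (330 CPM) and PGAM1 (211 CPM). The 8 had 0 calls in edgeR in either line, where 12.4% of all genes were called in SW480 and 0.381% in DLD1. GC-adjusted, ALDOA rose in SW480, by 0.22. In SW480 0 of the 8 reached an unadjusted p under 0.05 in edgeR, where 4802 of all 17572 genes did. DESeq2 called 0 there, where it called 16.1% of all genes. In DLD1 4 of 8 reached an unadjusted p under 0.05, where 3252 of all 17572 genes did. DESeq2 called 1 in DLD1, PGK1, where it called 5.64% of all genes. GAPDH (chr12:6534517-6538371), which oxidises glyceraldehyde 3-phosphate, stood at 7060, 7573 and 6561 CPM in SW480 controls and at 7897, 7687 and 5780 CPM after lactate. Those groups overlapped, at 0.04 ± 0.15 (adjusted p 0.903), a sign that turned when SW480 control 3, SW480 lactate 1 or SW480 lactate 2 was left out. In DLD1 GAPDH was at 7363, 5186 and 7684 CPM and at 7797, 8026 and 8309 CPM (0.23 ± 0.15, adjusted p 0.405), and the GC-adjusted difference was 0.02.

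PGK1 (chrX:78104248-78129295), which makes the first ATP of the pathway, was at 2639, 2867 and 2678 CPM in SW480 controls and at 2899, 2820 and 2567 CPM after lactate (0.04 ± 0.10, adjusted p 0.837). In DLD1 it was at 1118, 916 and 1081 CPM and at 1323, 1496 and 1289 CPM, without overlap (0.38 ± 0.10, adjusted p 0.133). So the SW480 groups overlapped and the DLD1 groups did not, and the difference of the effects was 0.33 ± 0.15 with an adjusted p of 0.271.

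ENO1 (chr1:8861000-8878686), the main enolase, was at 3268, 3239 and 3174 CPM in SW480 controls and at 3144, 2980 and 2714 CPM after lactate, lower in each lactate library (-0.11 ± 0.11, adjusted p 0.567). In DLD1 it was at 3052, 2464 and 3282 CPM and at 3327, 3488 and 3512 CPM, higher in each (0.21 ± 0.11, adjusted p 0.312). That DLD1 value was -0.03 when GC-adjusted.

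PKM (chr15:72199029-72231591), the pyruvate kinase gene of most tissues, was at 2565, 2557 and 2515 CPM in SW480 controls and at 2432, 2370 and 2189 CPM after lactate (-0.10 ± 0.11, adjusted p 0.608). In DLD1 it was at 4013, 3208 and 4652 CPM and at 4868, 4776 and 4906 CPM (0.27 ± 0.11, adjusted p 0.236). The DLD1 value of PKM was 0.03 when GC-adjusted. Counts per gene do not separate the M1 and M2 splice forms of this enzyme. The other upper enzymes, GPI, PFKL, PFKM, PFKP, ALDOA and TPI1, lay between -0.16 and 0.23 in SW480 and between 0.0012 and 0.47 in DLD1, and PGAM1 was at 0.16 and -0.06. edgeR called none of these 7 in either line, and DESeq2 called PFKP in DLD1. At an unadjusted p under 0.05 were 0 of the 7 in SW480 and 4 in DLD1. Of all 17572 genes, 4802 and 3252 were. PFKP had 0.47 ± 0.15 in DLD1, with an adjusted p of 0.151, GC-adjusted 0.0331.

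Summed over a library, the set of 8 enzymes above took 1.84% ± 0.0617 (SD, n = 3) of all counts in SW480 controls and 1.81% ± 0.192 after lactate. The other 29 genes took 0.353% ± 0.0349 and 0.596% ± 0.0393. SLC2A3, which had the highest level and the largest change in CPM of these 29, alone went from a mean of 960 to 2317 CPM. In DLD1 the 8 took 1.79% ± 0.328 in controls and 2.17% ± 0.0445 after lactate, and the 29 took 0.230% ± 0.0367 and 0.315% ± 0.0147.

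Of the 6 glycogen enzymes, 2 rose in SW480. In DLD1 edgeR called 0 of 6 and DESeq2 called 1, PYGL. There 4 of the 6 had an unadjusted p under 0.05, as did 3252 of all 17572 genes. PYGL (chr14:50905217-50944483), the liver type of glycogen phosphorylase, rose in SW480 from 314, 398 and 352 CPM to 654, 645 and 557 CPM. The separation was wide, at 0.83 ± 0.11 with an adjusted p of 0.00033, and held without each library. In DLD1 it was at 33.6, 30.3 and 33.8 CPM and at 43.9, 45.8 and 43.4 CPM, also apart, at 0.42 ± 0.11 (adjusted p 0.125, GC-adjusted 0.0306). GBE1 (chr3:81489703-81761645), the branching enzyme, rose in SW480 from 169, 195 and 187 CPM to 238, 243 and 247 CPM, by 0.43 ± 0.10 (adjusted p 0.0102). Without SW480 control 1 its adjusted p was 0.0751. In DLD1 GBE1 overlapped, at 89.3, 95.7 and 83.4 CPM and at 101, 111 and 95.5 CPM (0.17 ± 0.10, adjusted p 0.354).

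edgeR called none of the other 4 glycogen enzymes in either line, and DESeq2 called 0. At an unadjusted p under 0.05 were 0 of the 4 in SW480 and 3 in DLD1. Of all 17572 genes, 4802 and 3252 were. GC-adjusted, and with SW480 fitted alone, GYS1 rose and PGM1 fell in SW480. GYS1, the glycogen synthase of most tissues, had 0.28 ± 0.13 in SW480 and 0.41 ± 0.13 in DLD1, without overlap in either line (adjusted p 0.191 and 0.158). PGM1, the main phosphoglucomutase, had -0.24 ± 0.12 and 0.29 ± 0.11, with lactate libraries all below the controls in SW480 and all above them in DLD1 (adjusted p 0.184 and 0.204). Its difference between lines was 0.54 ± 0.16, with an adjusted p of 0.127, GC-adjusted 0.0051. PGM2 had -0.01 in SW480 and -0.28 in DLD1, GC-adjusted 0.03 and -0.07. PYGB, the brain type of phosphorylase, had -0.03 and 0.21, GC-adjusted -0.13 and -0.05, so that its sign turned in DLD1.

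**Figure D3:**
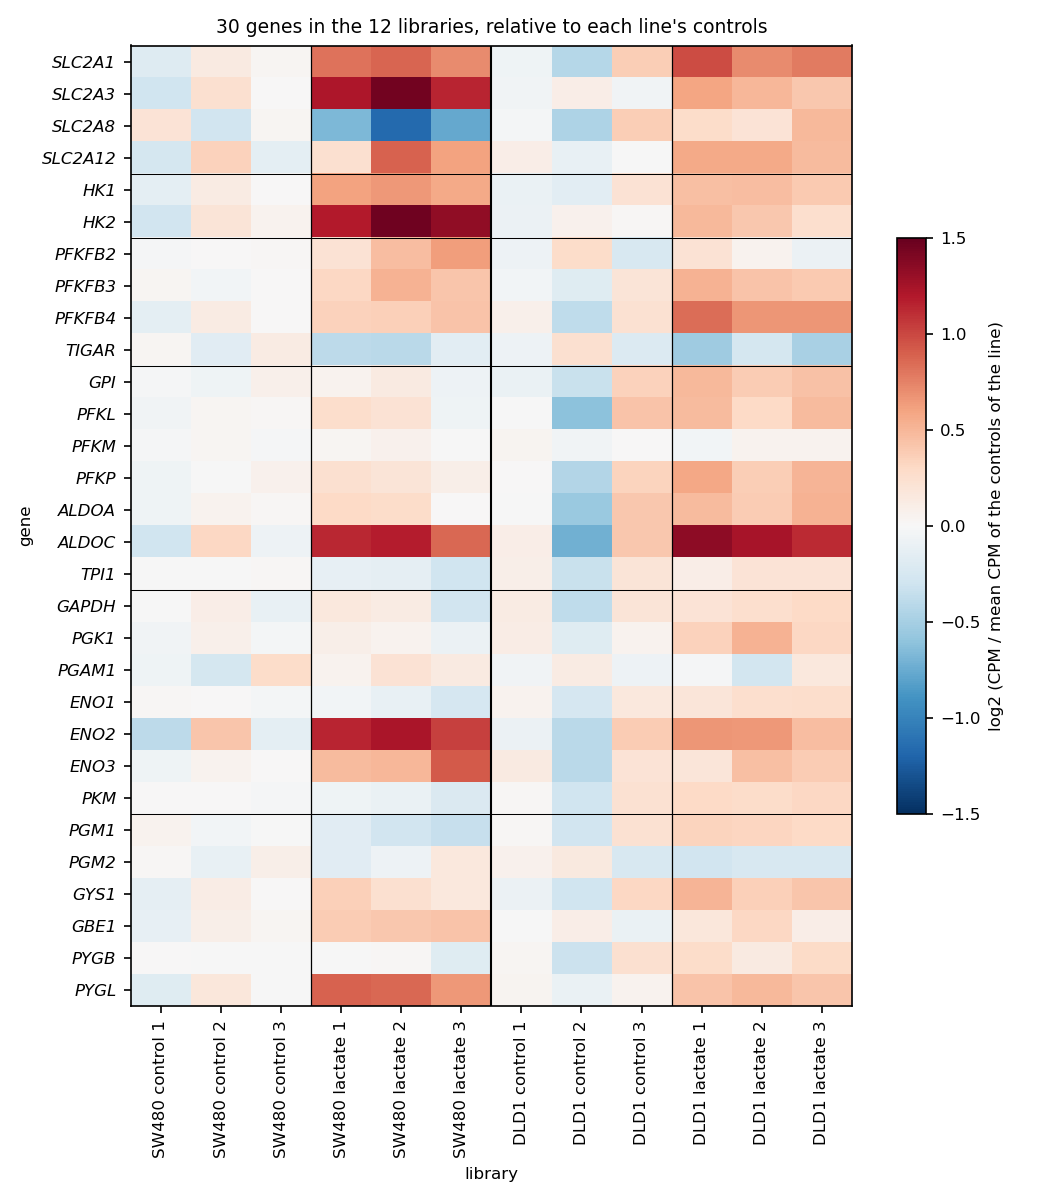
Level of 30 genes in each of the 12 libraries, as log2 of the CPM over the mean CPM of the controls of the line (colour scale, red above and blue below), with genes in rows by role and libraries in columns. The 3 SW480 lactate libraries are red for SLC2A1, SLC2A3, HK1, HK2, ALDOC, ENO2 and PYGL and blue for SLC2A8, values run from -1.16 to 1.46, and DLD1 control 2 is mostly blue where DLD1 control 3 is mostly red.

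Which isozyme held the transcripts was read from CPM per kilobase of transcript, so that genes could be set side by side. The shares are descriptions of 3 libraries per group and were not tested. Among the hexokinases of SW480, HK2 held 40.0% ± 1.93 (SD, n = 3) in controls and 52.6% ± 2.10 after lactate, and HK1 went from 58.5% ± 1.86 to 46.5% ± 2.00. HK2 thereby passed HK1, and it did so as well with the length of all exons of the gene in place of that of 1 transcript, from 45.5% to 58.1%. In DLD1 HK2 held 42.1% ± 3.45 and 41.0% ± 1.32. SLC2A3 held 76.0% ± 1.72 of the transporter transcripts in SW480 controls and 82.4% ± 0.914 after lactate, whereas in DLD1 SLC2A1 held 82.0% ± 2.33 and 85.9% ± 1.07.

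PYGL went from 70.2% ± 2.58 to 81.1% ± 0.249 of the phosphorylase transcripts in SW480, and in DLD1 PYGB was the larger one, at 69.2% ± 3.07 and 66.2% ± 1.98. ALDOC held 1.96% ± 0.353 of the aldolase transcripts in SW480 controls and 3.52% ± 0.0972 after lactate, and 1.38% ± 0.130 and 2.37% ± 0.239 in DLD1. ENO2 held 1.69% ± 0.489 and 3.97% ± 0.198 of the enolase transcripts in SW480, and 1.54% ± 0.237 and 2.00% ± 0.195 in DLD1. So the isozymes that rose stayed a small part of the aldolases and enolases per kilobase. Among the phosphofructokinases PFKP held 63.3% ± 0.874 in SW480 controls, and in DLD1 controls PFKL held 42.1% ± 4.28 and PFKP 39.2% ± 0.246. Among the PFKFB genes PFKFB4 was the largest in both controls, at 61.5% ± 2.45 in SW480 and 52.9% ± 4.88 in DLD1.

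**Figure D4:**
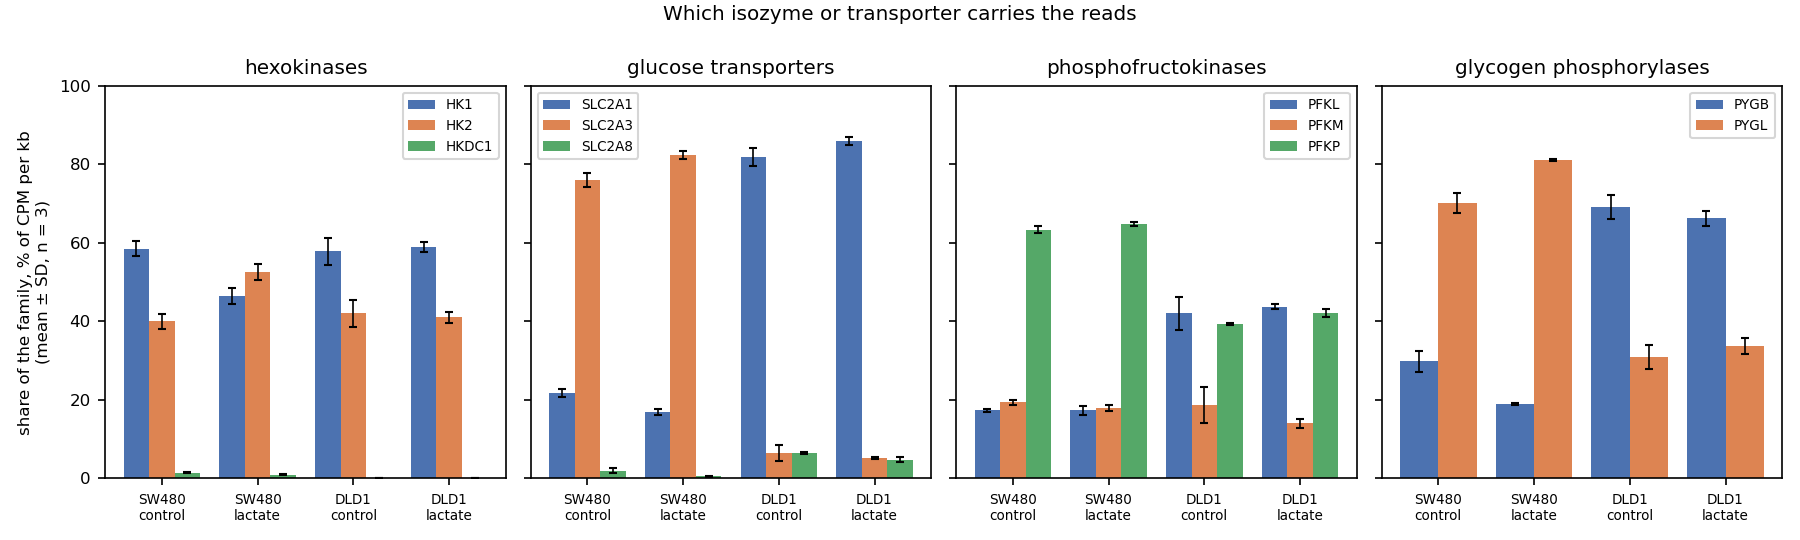
Share of each isozyme or transporter in its family (y axis, percent of CPM per kilobase from 0 to 100, mean ± SD, n = 3) in the 4 groups, for hexokinases, the 3 largest glucose transporters, phosphofructokinases and glycogen phosphorylases. HK2 passes HK1 in SW480 after lactate (40.0% to 52.6%), and SLC2A3 and PYGL lead in SW480 where SLC2A1 and PYGB lead in DLD1.

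The untreated lines differed in which transporters, kinases and glycogen enzymes they held. Between controls, DLD1 against SW480, 11 of the 34 genes were higher and 11 lower, where 33.6% of all tested genes were higher and 37.3% lower. A difference of at least 2-fold was called for 11 of the 34, that is for 32.4%, against 43.1% of all genes. These 11 include SLC2A10, FBP1 and HKDC1, which were tested only because they are high in 1 line. Of the 31 genes that passed the filter in both lines 8 were called at 2-fold, that is 25.8%, against 30.5% of such genes. The share of the 34 genes called is thus close to or below that of all genes, and each of those 8 calls held without each library.

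Lower in DLD1 by at least 2-fold were SLC2A3, at -4.92 ± 0.16 on the log2 scale, and PYGL, at -3.51 ± 0.12, both of which rose in SW480 after lactate. PGK1 had -1.46 ± 0.11, GBE1 -1.10 ± 0.10 and PYGB -1.08 ± 0.12. HKDC1 was lower as well, with 172 counts over the 3 SW480 controls and 2 over the 3 DLD1 controls, a 103-fold ratio with a 95% exact counting interval of 28.2 to 861.

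The other 11 called differences between the controls were smaller than 2-fold, with SLC2A1, SLC2A8, PFKFB4, TPI1, PKM and PGM1 higher in DLD1 and PFKM, PFKP, ALDOC, ENO3 and GYS1 lower. Those of SLC2A8, PFKFB4, TPI1 and ALDOC were lost in fits with 1 library left out. The control groups overlapped for SLC2A8, PFKFB4 and ALDOC.

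Higher in DLD1 by at least 2-fold were SLC2A12, by 2.40 ± 0.19, PFKFB3, by 1.41 ± 0.11, and PFKL, by 1.06 ± 0.19. SLC2A10, which encodes GLUT10, had 3 counts over the SW480 controls and 847 over the DLD1 controls, a 235-fold ratio with an interval of 80.1 to 1140. FBP1 had 7 and 1336 counts, a 159-fold ratio with an interval of 76.8 to 395. These intervals cover counting error only. For SLC2A10, FBP1 and HKDC1 the difference was a condition of being tested, and ratio and interval are a description. HK1, HK2, GPI, ALDOA, GAPDH, PGAM1 and ENO1 were not called between the controls, with log2 differences from -0.20 to 0.06. Of these, HK1, GAPDH and ENO1 were called lower in DLD1 when GC-adjusted, at -0.22, -0.20 and -0.32.

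Ordered by CPM per kilobase, GAPDH led in both controls, at 3768 ± 270 in SW480 and 3597 ± 725 in DLD1 (SD, n = 3). ENO1 (1376 ± 20.5) and PKM (937 ± 9.98) followed in SW480. In DLD1 PKM stood at 1457 ± 266 and ENO1 at 1251 ± 180, a pair that did not differ beyond its spread and changed places with the length of all exons. TPI1, ALDOA and PGK1 came next in both lines. In SW480, where TPI1 and ALDOA stood at 821 and 799, the order became PGK1, ALDOA and TPI1 with the exon length. SLC2A3 held the seventh place in SW480, at 245 ± 45.2, and place 28 in DLD1, at 8.48 ± 0.507.

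**Figure D5:**
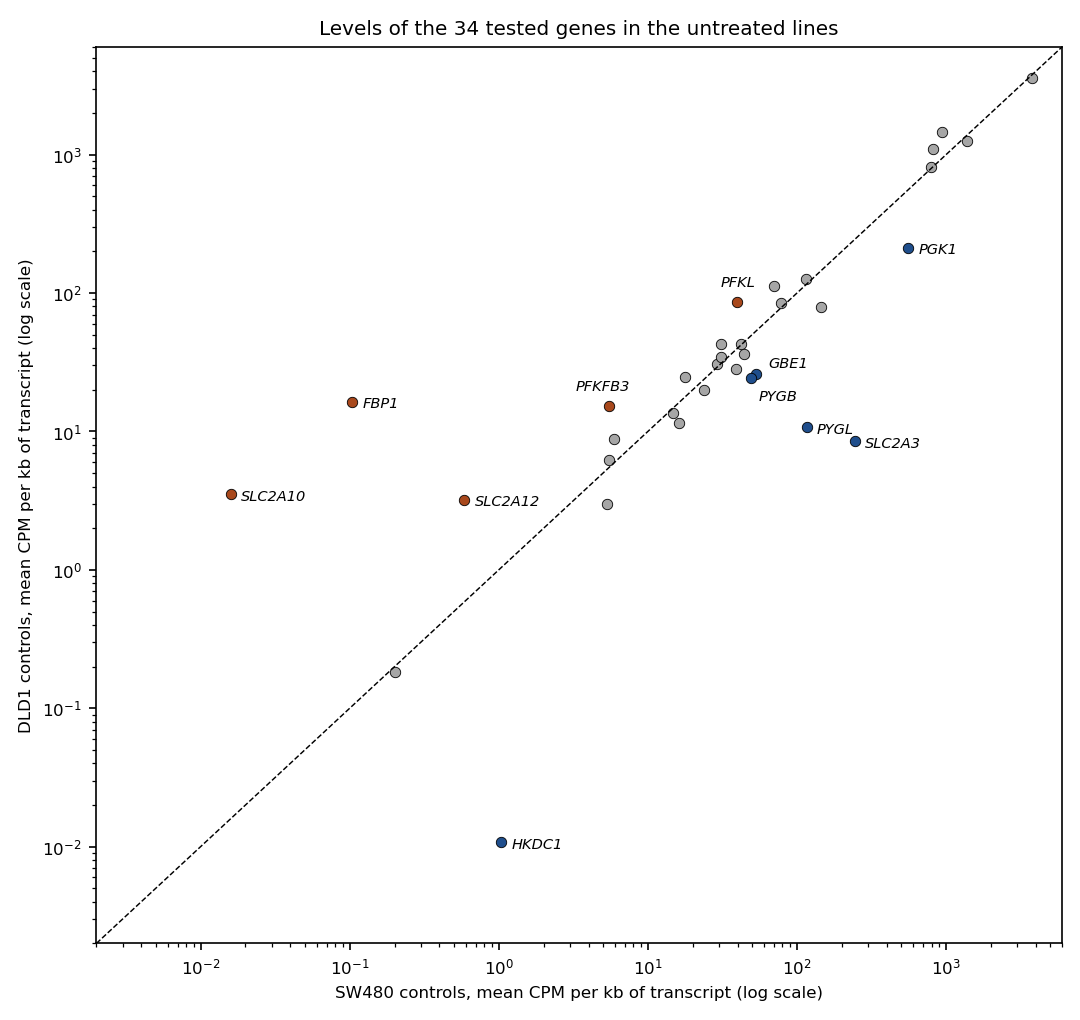
Mean level of the 34 tested genes in SW480 controls (x axis) and DLD1 controls (y axis), both in CPM per kilobase of transcript on log scales, with the dashed line of equal levels and names at the 11 genes called at 2-fold or more. SLC2A10, FBP1, SLC2A12, PFKFB3 and PFKL lie above the line, and HKDC1, SLC2A3, PYGL, PGK1, GBE1 and PYGB lie below it.

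Near-identical copies bear on a few of these values. The row of SLC2A3P1, a pseudogene of SLC2A3, held 289 to 563 counts in each of the 12 libraries. SLC2A3 itself held 530 to 993 counts in the DLD1 libraries and 12115 to 50468 in the SW480 libraries, so shared reads could weigh in DLD1 only. SLC2A3P1 stood at 30.6 ± 1.33 CPM in SW480 controls and 28.8 ± 0.898 CPM after lactate (log2 difference -0.06 ± 0.20), and at 22.6 ± 9.02 and 21.7 ± 2.20 CPM in DLD1 (-0.08 ± 0.20). The paralog SLC2A14 had at most 0.377% of the counts of SLC2A3, PGAM4 at most 3.55% of those of PGAM1, 64 GAPDH pseudogene rows together at most 0.736% of those of GAPDH, and 4 TPI1 pseudogene rows 1.99% to 2.84% of those of TPI1. How reads that match several copies were counted is not given in the sources used here.

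Around these 37 genes, 6 further lists of the same metabolism held 64 tested genes, of which 4 rose and 7 fell in SW480, where 6.83% of all genes rose and 5.58% fell. A count of 4 of 64 is no more than the share that rose, and 7 of 64 is above the share that fell. Neither was tested, and the genes below are described singly. GC-adjusted, 10 rose and 15 fell, where 13.9% of all genes rose and 14.8% fell. In DLD1 edgeR called 0 of the 64, where 0.336% of all genes rose and 0.0455% fell. An unadjusted p under 0.05 was reached by 10 of the 64 and by 3252 of all 17572 genes. DESeq2 gave an adjusted p to 49 of the 64 and called 1, H6PD, which rose, where it called 5.64% of all genes. GC-adjusted, 1 of the 64, PPP1R3B, rose in DLD1, by 0.34, where 1.84% of all genes rose.

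Of 24 further glycogen genes, 3 rose and 2 fell in SW480. PPP1R3C, a subunit that brings protein phosphatase 1 to glycogen, rose from 157, 210.1 and 182 CPM to 331, 374 and 371 CPM, by 1.0 ± 0.13 on the log2 scale (adjusted p 0.00040), and did not exceed 0.303 CPM in DLD1. PPP1R3B and PPP1R3E, which have the same task, changed by 0.50 ± 0.12 and 0.44 ± 0.13 (adjusted p 0.014 and 0.0419). GYG1, the glycogenin that primes the polymer, changed by -0.35 ± 0.10 (adjusted p 0.0371), and PHKB, a subunit of phosphorylase kinase, by -0.47 ± 0.11 (adjusted p 0.0135). PPP1R3D and PPP1R3F, of the same family, had 0.25 and -0.19 (adjusted p 0.241 and 0.356).

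Of 14 genes that branch from glycolytic intermediates, GFPT2, a first enzyme of the hexosamine pathway, rose by 0.72 ± 0.15 in SW480 (adjusted p 0.0064). KHK, the fructose kinase, changed by -1.05 ± 0.20 (adjusted p 0.0038) and ALDH1B1, a mitochondrial aldehyde dehydrogenase, by -0.65 ± 0.11 (adjusted p 0.0017). KHK went from 6.69, 5.53 and 5.32 CPM to 2.50, 3.10 and 2.70 CPM in SW480, and in DLD1 it was at 16.1, 10.7 and 15.9 CPM and 16.2, 15.3 and 17.2 CPM. In edgeR's main fit KHK was the 1 gene of the 64 called for the difference between lines, at 1.21 ± 0.25 (adjusted p 0.0432). There 0.728% of all genes were called. DESeq2 gave an adjusted p to 57 of the 64 and called 3, KHK and ALDH1B1 among them, where it called 4.69% of all genes. GC-adjusted, 4 of the 64 were called with the more positive effect in DLD1 and 2 with the more negative, where 8.1% of all genes were called.

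Of 5 other hexose transporters, SLC5A2, a sodium-coupled glucose transporter, changed by -2.47 ± 0.69 in SW480 (adjusted p 0.0316) at a mean of 1.43 CPM in controls. Of 7 other enzymes and regulators of glycolysis, ADPGK, which phosphorylates glucose with ADP, changed by -0.40 ± 0.10 (adjusted p 0.0182). Of 5 gluconeogenesis genes edgeR and DESeq2 called 0 in SW480, and 2 of the 5 had an unadjusted p under 0.05, as did 4802 of all 17572 genes. GC-adjusted, PCK2 and PC rose in SW480 and G6PC3 fell, by 0.29, 0.28 and -0.32.

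Between the controls, 23 of these 64 genes were higher in DLD1 and 20 lower, that is, at shares near the 33.6% and 37.3% of all genes. Of the 64, 11 passed the filter on low counts through 1 line only, and 10 of these are among the called. For those the difference was a condition of being tested, and the levels are given as a description. PPP1R3C had means of 183 CPM in SW480 controls and 0.123 CPM in DLD1 controls, GYG2, the second glycogenin, 27.5 and 0.224 CPM, NHLRC1, the ubiquitin ligase malin, 3.22 and 0.0165 CPM, and SLC2A13, a transporter of myo-inositol, 45.1 and 0.157 CPM. SLC5A1, the sodium-coupled glucose transporter of intestine, had 0.0871 and 5.20 CPM. Lower in DLD1 were the pentose phosphate genes RBKS (-2.41 ± 0.31) and TKT (-1.19 ± 0.16), while TALDO1 was higher (0.73 ± 0.14). GFPT2 (-2.59 ± 0.17) and GNPDA2 (-1.19 ± 0.14) were lower, and PSPH (2.07 ± 0.12) and ALDH1B1 (1.07 ± 0.10) higher. Of the gluconeogenesis genes, PC (-1.11 ± 0.18) and G6PC3 (-0.99 ± 0.16) were lower and PCK2 (0.46 ± 0.13) higher. BPGM (-0.74 ± 0.11) and ENO4 (-1.59 ± 0.40) were lower among other glycolysis genes. PGM5 had means of 0.124 CPM in SW480 controls and 5.05 CPM in DLD1 controls, GAPDHS 0.902 and 0.0174 CPM, and SLC2A9 0.106 and 0.722 CPM.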

How the data were processed

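Whole-number read counts per gene symbol in 12 libraries were used as deposited. The submitters' processing notes name HISAT2 as aligner and GRCh38 as genome. Versions, counter, annotation, strandedness and how multiply matching reads were handled: not given in the sources used here. Each of the 12 columns carries the title of 1 library, and 0 columns were unused.

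The software was edgeR 4.0.16 in R 4.3.3, with filterByExpr by group, TMM scaling (factors 0.946 to 1.05) and 1 robust quasi-likelihood model with 1 mean per group over all 12 libraries. P-values were two-sided and adjusted by Benjamini-Hochberg over 17572 genes, with a threshold of 0.05. A standard error (SE) is the size of the log2 fold change divided by the root of F. The fit was checked on simulated data with known fold changes, the same spread for every gene and no GC trend between libraries. That check does not bear on the GC-linked differences between libraries described above. GC-adjusted values have per-library offsets from natural splines (5 degrees of freedom) along transcript GC content and length, estimated on genes whose mean log2 CPM was 1 or more. GC content was available for 87.7% of the genes tested. Transcript lengths come from GENCODE 29 and positions from RefSeq on GRCh38.p14. DESeq2 1.42.0, other scaling and filters, a replicate block, each line alone and each library left out were the alternatives.

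The 37 genes, the further lists and the naming rule were chosen with earlier results of these data known. The rule gives values in every library for genes called for lactate or for the difference between lines and for SLC2A1, HK2, PFKFB3, PFKFB4, GAPDH, PGK1, ENO1 and PKM. Between controls it names genes called at 2-fold or more, and of each further list at most 4 called genes with the smallest p. The values of 1 gene that this rule takes in are not reported here. No 2 libraries of a group were duplicates, as their counts differed by 4.39 to 75.2 in chi-square per degree of freedom. Replicate numbers were not used to pair the samples in the main fit, and the correlations between same-numbered libraries did not settle whether they pair.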

Additional observations from a re-analysis of the deposited data

Results flagged for a closer look

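HK2 was the 1 gene of the 34 whose response to lactate differed between the lines in edgeR's test of the difference itself. The log2 effect, DLD1 minus SW480, was -0.99 ± 0.17 with an adjusted p of 0.0168. HK2 rose 2.56-fold in SW480 and stood 1.28-fold higher in DLD1, with a level above all controls in 3 of 3 lactate libraries of each line. The call was kept without 7 of the 12 libraries, and it was lost without SW480 control 1, SW480 control 3, SW480 lactate 2, DLD1 lactate 2 or DLD1 lactate 3, with an adjusted p of up to 0.0697. GC-adjusted, the difference was -1.03 with an adjusted p of 0.00049.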

How the results depend on the processing

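The number of genes called of 34 in SW480 was 13, where 12.4% of all genes were called. It lay between 13 and 18 under the other scalings, filters, tools and designs, where 7.11% to 30.2% of all genes were called. With 1 library left out it lay between 7 and 17, where 3.83% to 24% were. In DLD1 it was 3, where 0.381% of all genes were called. It was 14 without a filter, 11 of 32 in DESeq2, 9 when GC-adjusted and 0 with each line fitted alone. In these settings 2.37%, 5.64%, 3.3% and 0.00654% of all genes were called in DLD1. With 1 library left out it lay between 0 and 21, where 0.0166% to 21% were. For the difference between lines it was 1, where 0.728% of all genes were called. It was 4 without a filter, 4 of 33 in DESeq2 and 6 when GC-adjusted, where 2.32%, 4.69% and 8.1% were. With 1 library left out it lay between 0 and 6, where 0.05% to 8.35% were called. Between controls it was 22, where 70.8% of all genes were called, and ranged from 19 to 27, where 39.2% to 78.4% were. Replicate numbers correlated at 0.07, 0.07 and 0.14 in SW480 and at -0.17, 0.19 and 0.27 in DLD1, and not every library correlated best with its own number. With replicate number as a block, 14 genes were called in SW480, 3 in DLD1, 3 for the difference and 22 between controls. In that order 13.3%, 1.05%, 1.56% and 71.6% of all genes were called. Block and GC adjustment together gave 17, 9, 6 and 27, where 27.7%, 3.03%, 7.37% and 78.1% of all genes were called. GAPDH in SW480 turned from 0.04 to -0.0084 without SW480 control 3, to -0.022 without SW480 lactate 1 and to -0.015 without SW480 lactate 2, and was 0.20 without SW480 lactate 3. ENO1 in DLD1 turned from 0.21 to -0.033 when GC-adjusted and to -0.032 with the block as well. The cause of these changes was not tested. Depth limits SLC2A6, PGAM2 and PKLR and the line with the lower level of SLC2A10, FBP1 and HKDC1, where a difference after lactate was not detectable at this depth.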
